A study of Mus musculus with 7 samples.

Results

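The 35 genes described here are targets and partners of 2 linked stress programmes: 24 genes of an Atf4 and amino acid arm and 11 genes of an endoplasmic reticulum (ER) chaperone arm. They were taken by name, through the RefSeq accession of each transcript, from a table of 20385 genes, and the transcript row with the highest mean stood for each gene. All 35 were found, and 34 of them had the mean value of at least 1 that was needed for testing, as did 6424 genes in all. Vldlr, a lipoprotein receptor, was under that minimum.

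Messenger RNA was sequenced from the mouse embryonic stem cell line E14, kept in 2i media and carrying the Brn2-RFP GAVPO induction cassette, in which the light-switched activator GAVPO drives Brn2, a neural POU transcription factor. The 7 groups were 0, 2, 4, 6, 14, 24 and 48 h of LED light at 300 µW on an Ibidi plate, with 1 library each. All libraries carried the cassette, including that of 0 h, and neither cells without it nor cells kept dark for the later times are among them. Light, time in culture and Brn2 therefore cannot be told apart, and no time point has a replicate.

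When amino acids run short or unfolded proteins fill the ER, kinases phosphorylate the translation factor eIF2 alpha. General translation then slows while translation of Atf4 messenger RNA goes up, and Atf4 protein switches on genes for amino acid synthesis, amino acid import, tRNA charging and, under lasting stress, the death-linked factor CHOP, encoded by Ddit3. In parallel, the ER sensors IRE1 and ATF6 raise chaperones and degradation factors, IRE1 by splicing Xbp1 messenger RNA. Much of the control of Atf4 and Xbp1 lies in translation and splicing, which the values per gene used here do not show.

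Both arms have known promoter elements, so the windows from 250 bases before to 50 bases after each start site were searched on both strands in RefSeq sequence of build GRCm38.p6. The amino acid response element that binds Atf4 dimers was searched as TGATGNAA (CARE), the ER stress element as CCAAT and CCACG with a 9-base spacer (ERSE) and its shorter form as ATTGG and CCACG with a 1-base spacer (ERSE-II). Windows were at hand for 30 of the 35 genes. CARE letters occurred in 7 of 20 genes of the Atf4 arm and in 1 of 10 of the ER arm, against 3.97% of all 32851 promoters. ERSE letters occurred in 0 of 20 and 4 of 10 genes, against 0.119% of promoters, and ERSE-II letters in 1 gene, Herpud1, against 0.0365%. A match describes letters only and does not show that a factor bound there. The 30 genes had 34 windows and each gene was counted once, whereas the shares are per promoter. The windows below are examples that carry these letters. Each is printed 5′ to 3′ on the strand of its gene, up to the base before the start site, with the matched letters in capitals.

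Asparagine synthetase Asns (chr6:7693210-7693349, minus strand), the stress-induced chromatin protein Nupr1 (chr7:126625471-126625610, minus strand) and the glutathione-degrading enzyme Chac1 (chr2:119351029-119351241, plus strand) carry CARE letters, which in Nupr1 and Chac1 stand in reverse complement. They begin 23, 110 and 193 bases before the start site in that order.
Asns: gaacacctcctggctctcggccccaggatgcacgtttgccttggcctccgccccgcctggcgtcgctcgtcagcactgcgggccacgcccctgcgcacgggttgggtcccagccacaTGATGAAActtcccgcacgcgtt
Nupr1: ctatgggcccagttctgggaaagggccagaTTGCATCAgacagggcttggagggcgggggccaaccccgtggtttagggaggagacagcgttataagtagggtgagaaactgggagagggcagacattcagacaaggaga
Chac1: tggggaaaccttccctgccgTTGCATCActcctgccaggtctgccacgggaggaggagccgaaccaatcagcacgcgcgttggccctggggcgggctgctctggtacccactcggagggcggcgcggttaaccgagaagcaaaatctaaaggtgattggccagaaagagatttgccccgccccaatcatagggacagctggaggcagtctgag

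Hspa5, which encodes the ER chaperone BiP (chr2:34771950-34772089, plus strand), the calcium-binding lectin chaperone Calr (chr8:84846932-84847113, minus strand) and Hsp90b1, the ER form of Hsp90 (chr10:86705445-86705676, minus strand), carry ERSE letters. Hspa5 has them in forward order, Calr in reverse complement, and Hsp90b1 once in each. Herpud1, a membrane protein of ER-associated degradation (chr8:94386289-94386428, plus strand), is the only member here with letters of both kinds, CARE in reverse complement followed by ERSE-II.
Hspa5: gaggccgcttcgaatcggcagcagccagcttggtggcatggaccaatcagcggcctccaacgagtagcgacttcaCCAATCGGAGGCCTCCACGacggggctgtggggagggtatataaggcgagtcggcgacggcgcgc
Calr: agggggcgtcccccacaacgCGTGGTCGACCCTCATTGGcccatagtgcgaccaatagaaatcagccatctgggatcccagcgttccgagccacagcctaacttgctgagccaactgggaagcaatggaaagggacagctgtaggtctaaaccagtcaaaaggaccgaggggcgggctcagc
Hsp90b1: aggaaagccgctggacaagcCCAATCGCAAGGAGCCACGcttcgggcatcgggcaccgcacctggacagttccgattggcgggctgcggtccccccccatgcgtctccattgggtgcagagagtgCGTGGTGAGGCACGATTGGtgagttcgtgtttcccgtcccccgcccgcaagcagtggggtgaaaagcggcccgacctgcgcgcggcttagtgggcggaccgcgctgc
Herpud1: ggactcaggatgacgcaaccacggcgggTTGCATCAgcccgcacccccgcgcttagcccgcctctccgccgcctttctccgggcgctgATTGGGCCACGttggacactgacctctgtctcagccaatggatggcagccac

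The values given are those of the deposited table. They behaved as reads per kilobase of a gene's genomic span (introns included) scaled to library depth, and the implied depth was 7.06 to 16.2 M reads per library. All 6 pluripotency markers were above 0 in every library, with a summed value between 357 at 14 h and 491 at 2 h. Pou5f1 and Sox2 were highest at 48 h, Nanog, Zfp42 and Esrrb at 2 h and Klf4 at 6 h. The 5 neuronal markers summed to 10.5 at 0 h and 92.1 at 48 h, where Tubb3 (44.6) and Neurod1 (43.6) made up most of the sum. Stmn2 was highest at 4 h (4.38), and Map2 and Dcx reached no more than 0.12 and 0.11. The 5 feeder fibroblast markers summed to at most 3.24 and the 3 endoderm markers to at most 0.504. Of the feeder markers, Col1a2 went from 0.045 at 0 h to 2.16 at 48 h, and Thy1 was highest at 6 h (1.39). The part of the higher neuronal values in the values below was not tested, and in bulk RNA fewer cells of a type and less RNA per cell cannot be told apart. GC-rich genes stood 0.52 above their mean on the log2 scale at 48 h, and 0.35 below it at 0 h, so tests are also given with each library's GC trend removed.

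To set levels of different genes side by side, the mean value was rescaled to a kilobase of mature RNA. This takes all reads counted over a gene's span as exonic, which was not tested and matters most for genes with long introns. On that scale Calr (293.5) and Asns (291) were the highest of the 35, followed by Hsp90b1 (223), Atf4 (203) and the glycyl-tRNA synthetase Gars (175). Ddit3 stood at 46.6, Trib3 at 22.9 and Vldlr at 1.01.

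A straight line on log2 of hours plus 1 was fitted with limma to log2 of the value plus 1, and changes are printed as the log2 difference between the ends of that line, 0 and 48 h, ± the standard error. At a Benjamini-Hochberg adjusted p under 0.05, 19 of the 6424 genes rose (0.296%) and 4 fell (0.0623%), and none of the 34 tested members did either. By unadjusted p, 10 of 34 members and 1385 of all 6424 genes were under 0.05. The same line fitted to approximate reads with limma-voom called 304 genes as rising (2.25%) and 108 as falling (0.801%) of 13482, and 2 members fell, Ddit3 and Dnajb9. With the GC trend removed from those reads, 58 genes fell (0.43%) and 328 rose (2.43%), and the members that fell were Ddit3 and Trib3. Removing the GC trend from the log2 values left 7 genes that rose (0.109%) and 1 that fell (0.0156%), with no member among them. There, 10 of 34 members and 1173 of all 6399 genes had an unadjusted p under 0.05.

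**Figure D1:**
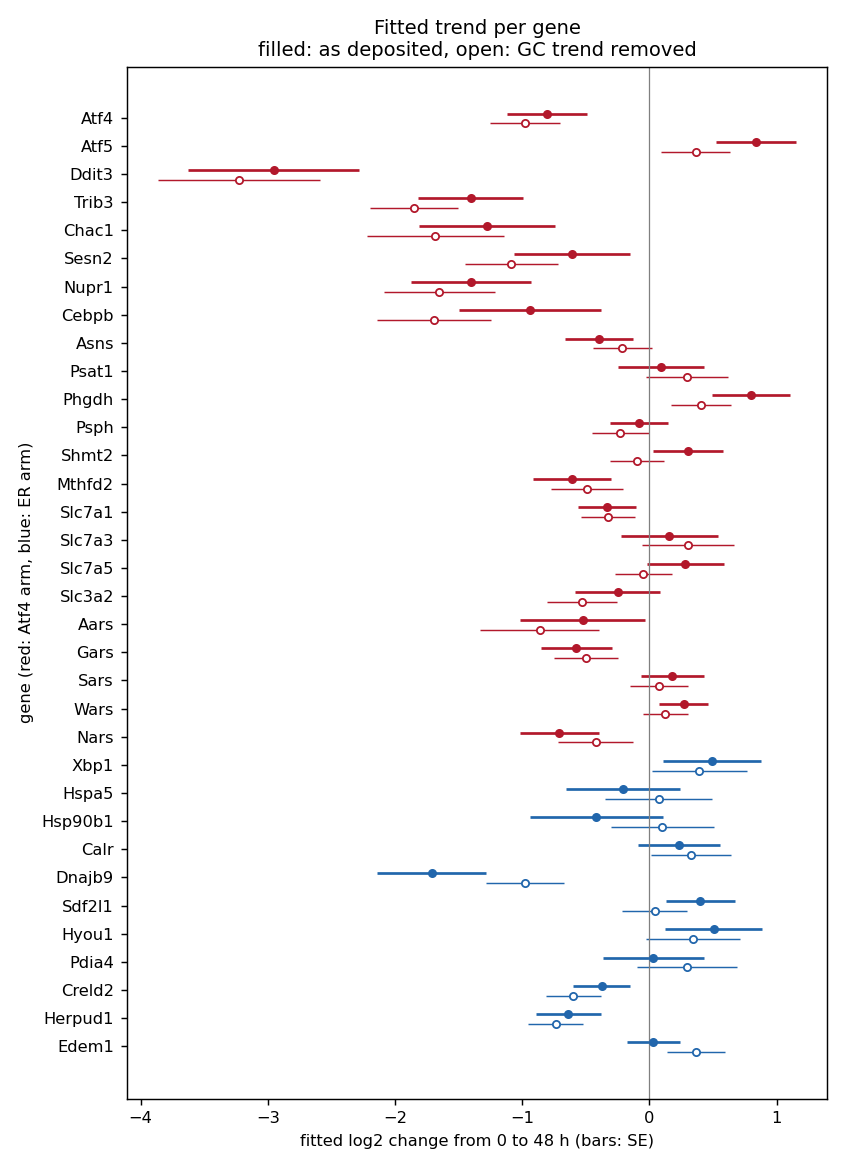
Fitted log2 change from 0 to 48 h (horizontal axis) for the 34 tested genes, with bars of 1 standard error from limma over 7 libraries; filled points are values as deposited and open points have the GC trend removed. Ddit3 lies farthest to the left (-2.95 as deposited), 7 of 8 regulators are negative, and the ER arm (blue) is spread on both sides of 0 apart from Dnajb9 (-1.71).

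The fitted changes in the plot of trends per gene differed between role groups within an arm. In the Atf4 arm 15 of 23 tested genes had a negative change, with a median of -0.40, and in the ER arm 5 of 11 did, with a median of 0.03. Of all tested genes 3185 of 6424 did, with a median of 0.01. Within the Atf4 arm, 7 of 8 regulators (median -1.11), 3 of 5 tRNA synthetases (median -0.52), 3 of 6 enzymes (median 0.00) and 2 of 4 transporters (median -0.05) were negative. After GC correction 17 of 23 genes of the Atf4 arm (median -0.42) and 3 of 11 of the ER arm (median 0.10) were negative. Of all genes 2743 of 6399 were, with a median of 0.07. Within the Atf4 arm the negative ones were then 7 of 8 regulators (median -1.67), 3 of 5 tRNA synthetases (median -0.42), 4 of 6 enzymes (median -0.16) and 3 of 4 transporters (median -0.19). No test of the difference between arms was made, since the members were chosen by name with results of these data known.

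Among the regulators, Ddit3 had the widest range of all 35 genes, 9.19-fold between its highest and lowest library. Its values were 14.6, 6.57, 11.9 and 14.4 at 0, 2, 4 and 6 h and 1.80, 1.59 and 1.78 at 14, 24 and 48 h. The 3 later libraries were all low and close together, and they did not overlap the 4 earlier ones, of which 2 h was the lowest, 2.22-fold below 0 h (95% interval 1.95 to 2.55). Between 6 and 14 h the value was 8.0-fold lower (95% exact binomial interval 6.42 to 9.96, from about 1087 and 91 reads), an interval that covers counting error only and takes each read as a separate molecule. The fitted change was -2.95 ± 0.67 (limma, adjusted p = 0.073), -3.22 after GC correction (adjusted p = 0.064) and -3.37 on reads (limma-voom, adjusted p = 0.039). Ddit3 overlaps Mars, a methionyl-tRNA synthetase gene on the opposite strand, and the sources used here do not say whether counting used strand.

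Because the later Ddit3 values lay together below the earlier ones, a step was also fitted, with 0 to 6 h against 14 to 48 h. This split was chosen after the values had been seen, and its p-values are no independent evidence for it. With limma, 22 genes were higher (0.342%) and 26 lower (0.405%) in the later libraries at an adjusted p under 0.05, and Ddit3 was the only member called (-2.19 ± 0.25, adjusted p = 0.0049). It was also called with any 1 of the 7 libraries left out (limma, adjusted p between 0.00050 and 0.039). Those fits keep the split taken from these values, so they are no independent evidence either. Among all tested genes they called 3 to 38 as higher and 4 to 42 as lower. With the GC trend removed, 55 genes were higher (0.86%) and 82 lower (1.28%), and 4 members were lower: Ddit3 (-2.29, adjusted p = 0.0039), Sesn2 (-0.91, adjusted p = 0.012), Cebpb (-1.27, adjusted p = 0.012) and Trib3 (-1.16, adjusted p = 0.034).

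Trib3, a pseudokinase that Atf4 and CHOP induce and that restrains Atf4 in turn, had values of 10.9, 6.11, 7.96 and 11.5 at 0 to 6 h and 5.69, 3.10 and 3.79 at 14 to 48 h. The later libraries lay below the earlier ones, with 2 h and 14 h close to each other. Its value was 2.02-fold lower at 14 h than at 6 h (95% interval 1.78 to 2.29). The line gave -1.41 ± 0.41 (limma, adjusted p = 0.115), and on reads with the GC trend removed -2.11 (limma-voom, adjusted p = 0.025).

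Nupr1 also had its later values below the earlier ones, with 14.7, 7.08, 11.1 and 17.1 at 0 to 6 h and 5.78, 5.65 and 4.73 after that. The value at 14 h was 2.96-fold lower than at 6 h (95% interval 2.44 to 3.61). Its line did not pass the test (-1.40, limma adjusted p = 0.148). Cebpb, a bZIP factor that pairs with Atf4 and CHOP, was highest at 6 h (7.65, 8.04, 10.4 and 17.3 at 0 to 6 h) and stood at 7.31, 3.68 and 4.70 later. At 6 h it was 2.26-fold above the library without light, without GC correction. Its transcript is 67.2% GC, the most of the members, and GC-rich genes stood 0.35 below their mean at 0 h and 0.22 above it at 6 h (log2). The fitted change of Cebpb was -0.94 (limma, adjusted p = 0.341), and -1.70 after GC correction (limma, adjusted p = 0.110). Its later libraries did not overlap the earlier ones, although 14 h and 0 h were close, and Cebpb overlaps Tmem189 on the opposite strand.

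These 4 regulators, Ddit3, Trib3, Nupr1 and Cebpb, were the members whose 3 later values all lay below the 4 earlier ones, 4 of 34 members against 5.81% of all tested genes. With the GC trend removed, Atf4, Sesn2 and the transporter subunit Slc3a2 joined them, 7 of 34 against 6.81%. The reverse order, with the later values above, was seen in 3 members against 6.16% of genes: Xbp1, the ER folding factor Sdf2l1 and the seryl-tRNA synthetase gene Sars.

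**Figure D2:**
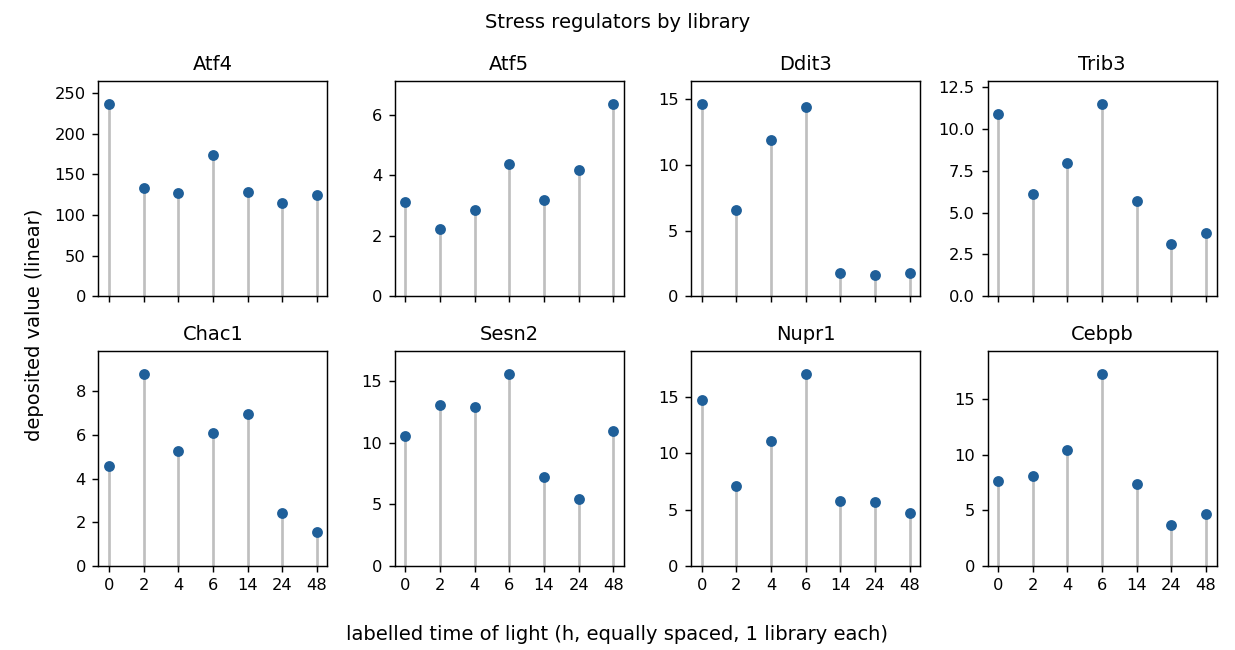
Deposited value (vertical axis, linear, from 0) of the 8 regulators in each of the 7 libraries, with labelled hours of light equally spaced on the horizontal axis and 1 point per library. Ddit3 stands between 6.57 and 14.6 up to 6 h and between 1.59 and 1.80 from 14 h, whereas Atf4 is highest at 0 h (236) and Atf5 at 48 h (6.35).

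As deposited, Atf4 itself did not have the shape of Ddit3. Its values were 236, 133, 127 and 173 at 0 to 6 h and 128, 114 and 125 at 14 to 48 h, so that 0 h stood apart and the 14 h value lay just above that of 4 h. Between 0 and 2 h the value was 1.77-fold lower (95% interval 1.69 to 1.85), and from 6 to 14 h 1.35-fold lower (1.29 to 1.41). The fitted change was -0.80 ± 0.32 (limma, adjusted p = 0.186), and it stayed negative under 16 other settings, from -1.02 to -0.32. With the GC trend removed, the Atf4 values from 14 h on all lay below those at 0 to 6 h.

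The remaining regulators varied in their own ways. Atf5, a close relative of Atf4 that is likewise controlled in translation, was lowest at 2 h (2.24) and highest at 48 h (6.35). Its fitted change was 0.83 (limma, adjusted p = 0.172), and 0.36 after GC correction (limma, adjusted p = 0.493). The gene overlaps Nup62 and Il4i1 on the opposite strand. Chac1 had 4.60, 8.81, 5.25 and 6.11 at 0 to 6 h and 6.98, 2.44 and 1.55 at 14, 24 and 48 h. It peaked at 2 h, was still high at 14 h and did not have the step pattern. Its low values came after 14 h, and 48 h was 4.52-fold under 14 h (95% interval 3.46 to 5.93), and its line did not pass the test (-1.28, limma adjusted p = 0.206). Sesn2, a leucine-responsive inhibitor of mTORC1, was highest at 6 h (15.6), 2.17-fold lower at 14 h (7.21) and, as deposited, back near its 0 h value at 48 h. With the GC trend removed, its values from 14 h on all lay below those at 0 to 6 h. Its step, a split chosen after the values were seen, was then -0.91 (limma, adjusted p = 0.012).

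The enzymes of asparagine, serine and one-carbon metabolism did not move with Ddit3. Asns, the classical Atf4 target, had 33.6, 38.2, 38.7 and 27.5 at 0 to 6 h and 31.5, 28.4 and 27.5 at 14 to 48 h. Its whole range was 1.41-fold, and the later values lay inside the earlier ones or just below them (fitted change -0.40 ± 0.27, limma adjusted p = 0.398).

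Phgdh, which takes the first step from glycolysis to serine, stood at 1.66, 1.91, 1.88 and 2.18 at 0 to 6 h and at 3.62, 1.85 and 4.15 at 14 to 48 h. The 14 and 48 h libraries were high and the 24 h library was level with the early ones (0.80 ± 0.31, limma adjusted p = 0.179). After GC correction the change of Phgdh was 0.41 (limma, adjusted p = 0.380). Mthfd2, a mitochondrial enzyme of folate metabolism, stood at 7.67, 5.77, 6.12 and 4.66 and then at 7.72, 4.88 and 3.79, with 0 and 14 h highest and 48 h lowest (-0.61 ± 0.31, limma adjusted p = 0.269). Psat1 and Psph, the next steps of serine synthesis, were both highest at 14 h, at 12.1 and 1.69. Shmt2, which splits serine for folate metabolism in mitochondria, ran from 19.6 to 27.3, and it overlaps Ndufa4l2 on the opposite strand.

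The fitted changes of the 4 tested transporters lay between -0.33 and 0.28. Slc7a1, an importer of cationic amino acids, had 2.59, 2.21, 2.72 and 2.41 at 0 to 6 h and 2.51, 1.55 and 2.01 later, with 24 h lowest (-0.33 ± 0.23, limma adjusted p = 0.406). Slc7a5, the light chain of the leucine importer, had 10.6, 12.2, 12.6 and 17.6 and then 13.6, 10.8 and 15.3, with 6 h highest (0.28 ± 0.30, adjusted p = 0.599). Slc3a2, its heavy chain, was also highest at 6 h (24.7), 1.72-fold above 14 h. Slc7a3, a further cationic transporter, had its highest value at 2 h (43.4) and its lowest at 14 h (22.0). Vldlr did not exceed 0.198 in any library.

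The 5 tRNA synthetase genes of the Atf4 arm were all higher at 14 h than at 4, 6 or 24 h, though 14 h was the highest library only in Aars and Sars. Of all tested genes, 54.7%, 50.3% and 54.1% were higher at 14 h than at 4, 6 and 24 h in that order. Nars, for asparagine, had 12.3, 8.58, 9.29 and 7.26 at 0 to 6 h and 11.5, 6.96 and 5.95 at 14 to 48 h, and Gars 13.7, 9.78, 9.94 and 8.66, then 12.0, 8.86 and 7.37. In both, 0 and 14 h were high and 48 h was lowest, and earlier and later libraries overlapped. Their lines did not pass the test (Nars -0.71 ± 0.31, adjusted p = 0.226, and Gars -0.58 ± 0.28, adjusted p = 0.255, by limma). Aars, for alanine, ranged most, 2.47-fold, from 22.9 (0 h) and 11.8 (2 h) to 27.0 (14 h) and 10.9 (24 h), and it overlaps Exosc6 on the same strand. Sars and Wars ranged 1.43-fold and 1.40-fold over the 7 libraries.

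In the ER arm, Xbp1, the transcription factor downstream of IRE1, had 9.01, 7.55, 5.01 and 7.67 at 0 to 6 h and 13.0, 9.18 and 10.7 at 14 to 48 h. It was lowest at 4 h and highest at 14 h, and its later values lay above the earlier ones, with 24 h just above 0 h. Its line did not pass the test (0.49 ± 0.39, limma adjusted p = 0.460).

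Hspa5 had 71.2, 50.9, 39.4 and 36.8 at 0 to 6 h and 80.6, 58.4 and 42.8 at 14 to 48 h. It was thus lower in each library up to 6 h, stood high at 14 h and was low again at 48 h, and earlier and later libraries overlapped. The value at 14 h was 2.19-fold that at 6 h (95% interval 2.08 to 2.31) and 1.88-fold that at 48 h (1.79 to 1.98). A straight line cannot hold such a shape (-0.21 ± 0.45, limma adjusted p = 0.806), and its sign differed from this in 4 of 16 other settings.

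Hyou1, a chaperone that exchanges the nucleotide of BiP, had 7.70, 10.8, 6.92 and 7.73 at 0 to 6 h and 15.9, 8.83 and 11.3 at 14 to 48 h. The 14 h library was the highest, 2.05-fold above 6 h (95% interval 1.91 to 2.20), and the groups overlapped through 2 h (0.51 ± 0.38, limma adjusted p = 0.442). Hsp90b1 (2.51-fold), the disulfide isomerase Pdia4 (1.97-fold) and Calr (1.6-fold) were likewise higher at 14 h than at 6 h, each beyond counting error. For Sdf2l1 the 95% interval of that ratio held 1 (1.21-fold, 0.97 to 1.5).

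Dnajb9, a BiP cochaperone that holds IRE1 inactive, had the widest range of the ER arm, 6.85-fold. Its values were 9.76, 6.42, 7.69 and 3.68 at 0 to 6 h and 6.37, 4.36 and 1.43 at 14 to 48 h, with 0 h highest and 48 h far below the rest. Creld2 and Herpud1 were also highest at 0 h and lowest at 48 h, over narrower ranges of 1.47-fold and 1.76-fold, and Dnajb9 was, like the other chaperone genes, higher at 14 h than at 6 h. For 0 h over 48 h the 95% interval was 5.59 to 8.45. The fitted change was -1.71 ± 0.43 (limma, adjusted p = 0.086), and -2.14 on reads (limma-voom, adjusted p = 0.049). It was smaller with the GC trend removed, -0.98 (limma, adjusted p = 0.149) and -1.30 on reads (limma-voom, adjusted p = 0.107). Its transcript is 40.6% GC, the least of the members, and without the 48 h library the change was -1.06 (adjusted p = 0.645).

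The degradation genes did not share the high value at 14 h. Herpud1 had 5.64, 5.38, 3.77 and 5.43 at 0 to 6 h and 4.74, 3.46 and 3.19 later, lowest at 48 h (-0.64 ± 0.26, limma adjusted p = 0.193). Edem1, a lectin that hands misfolded glycoproteins to degradation, stayed between 2.22 and 2.85 in all 7 libraries (0.03 ± 0.21, limma adjusted p = 0.939).

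**Figure D3:**
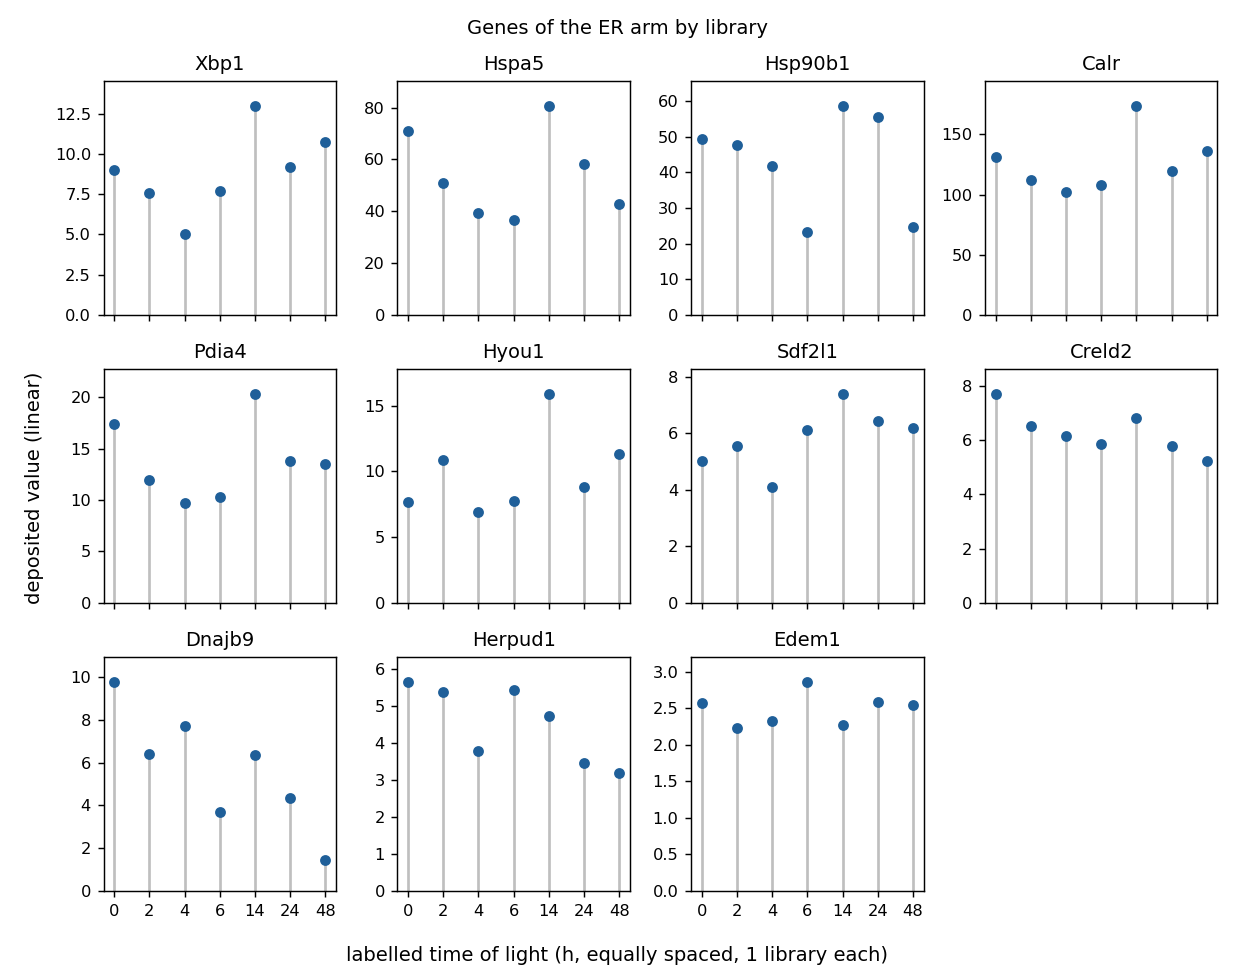
Deposited value (vertical axis, linear, from 0) of the 11 genes of the ER arm in each of the 7 libraries, with labelled hours of light equally spaced on the horizontal axis and 1 point per library. Xbp1, Hspa5, Hsp90b1, Calr, Pdia4, Hyou1 and Sdf2l1 have their highest point at 14 h, while Dnajb9 ends at 1.43 at 48 h.

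At 14 h the medians of the ER arm and of the regulators lay on opposite sides of the gene means (0.48 and -0.16). The whole Atf4 arm, with 23 tested genes, was on the side of the ER arm in that library (0.11, or 0.13 with the GC trend removed). That library held the highest of the 7 values in 7 of 11 genes of the ER arm, 6 of its 8 chaperone and folding genes among them, in 5 of 23 genes of the Atf4 arm and in 0 of 8 regulators, against 15.3% of all tested genes. With the GC trend removed the ER arm had 7 of 11 and the Atf4 arm 9 of 23, against 20.8% of genes. Set against 6 h, 14 h was higher in 9 of 11 genes of the ER arm (median log2 difference 0.68) and lower in 7 of 8 regulators (-0.96), where 50.3% of all genes were higher and the median difference was 0.00. The enzymes (6 of 6 higher, median 0.37) and synthetases (5 of 5, median 0.43) of the Atf4 arm stood with the ER arm in this, and the transporters (1 of 4, median -0.35) with the regulators. With the GC trend removed the ER arm differed by 0.67 and the regulators by -0.91, with 9 of 11 and 1 of 8 higher, against 48.3% of genes. Set against 4 h in place of 6 h, 14 h was higher in 9 of 11 genes of the ER arm and in 3 of 8 regulators, against 54.7% of genes. All of this rests on 1 library at 14 h and has no test.

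**Figure D4:**
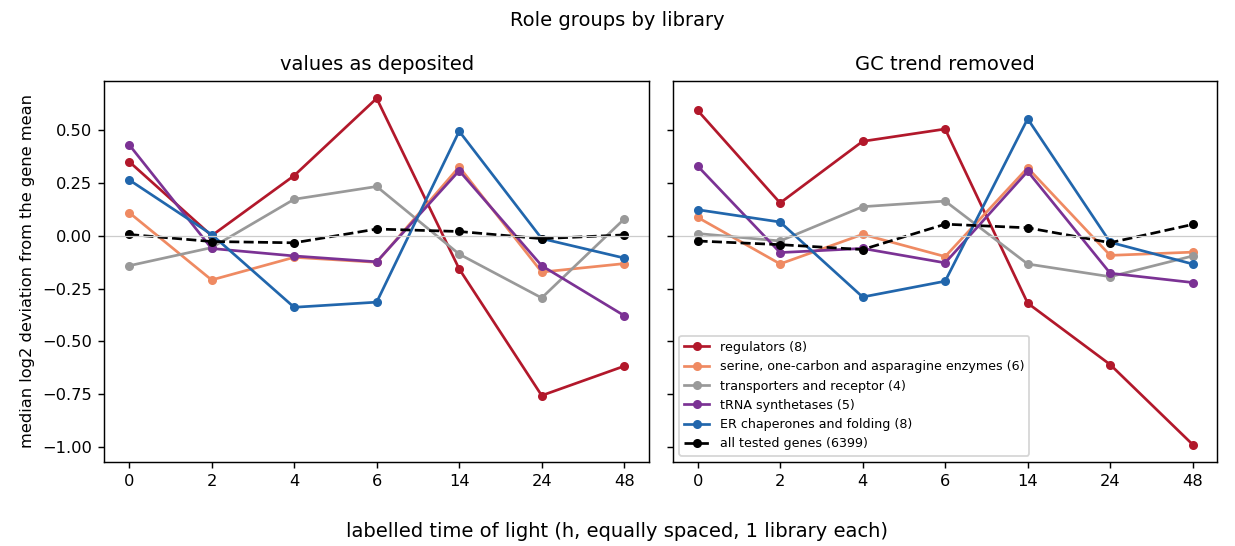
Median over each role group of the log2 deviation of its genes from their own mean over the 7 libraries (vertical axis), by labelled hours of light (equally spaced), as deposited on the left and with the GC trend removed on the right; the legend gives genes per group, and the dashed line is all tested genes (6424 on the left). Regulators are at 0.65 at 6 h and -0.16 at 14 h, while the ER chaperone and folding genes are highest at 14 h in both panels.

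Relative to the library without light, the median log2 ratio of the ER arm was -0.21, -0.31, -0.27, 0.21, -0.13 and -0.34 at 2, 4, 6, 14, 24 and 48 h. Over all tested genes the median lay between -0.05 and 0.05 in these libraries. All 11 genes of the ER arm were below their 0 h value at 4 h, as were 3633 of all 6424 tested genes. At 14 h, 7 of 11 were above it, as were 3312 of all 6424. The regulators were at -0.54, -0.19, 0.27, -0.66, -0.96 and -1.03 in the same order. The 2 groups thus stood on opposite sides of the 0 h level at 6 and 14 h and on the same side, below it, at 2, 4, 24 and 48 h. With the GC trend removed the regulators were at -0.02 at 6 h, so their place above 0 h at that time was not kept, and at -1.60 at 48 h. The whole Atf4 arm, as deposited, was at -0.16, -0.09, 0.07, -0.03, -0.49 and -0.28 at 2, 4, 6, 14, 24 and 48 h.

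**Figure D5:**
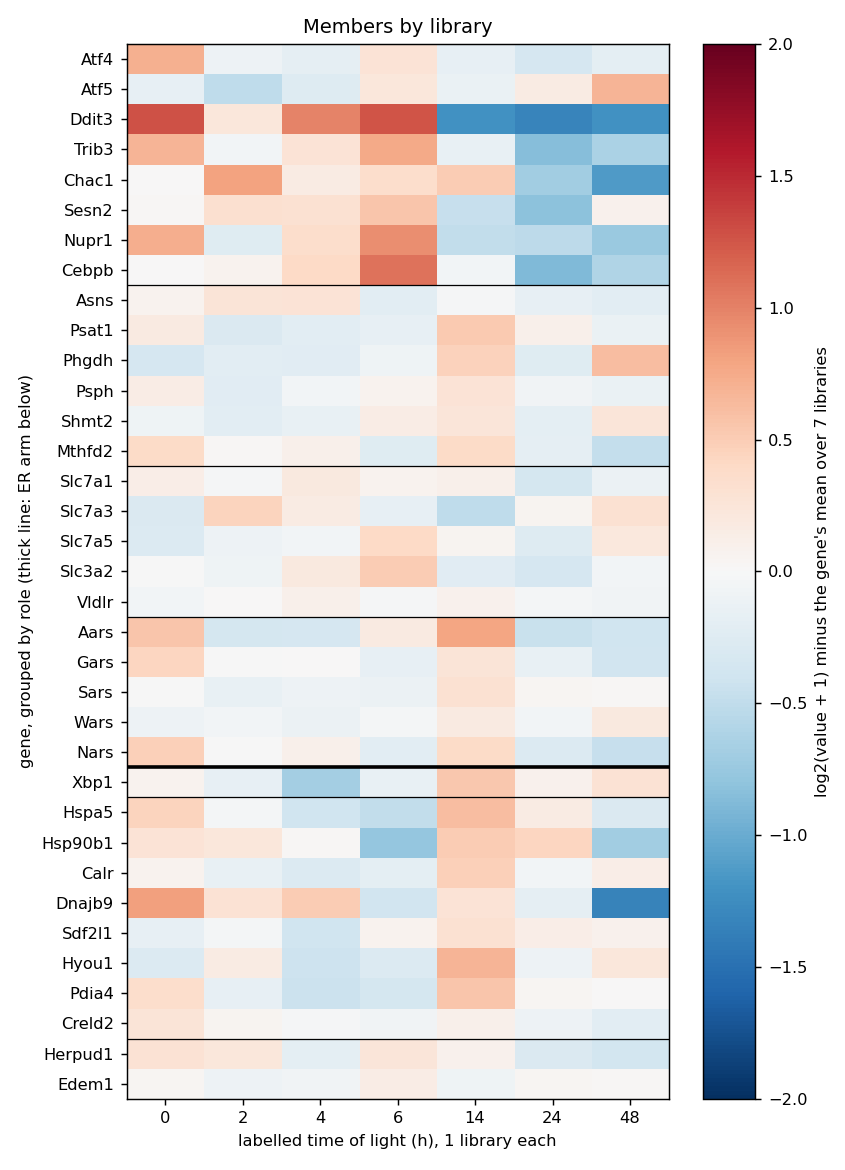
Each of the 35 genes (rows, grouped by role, with a thick line between the arms) in the 7 libraries (columns, labelled hours of light), coloured by log2 of the value plus 1 minus the gene's mean over the libraries, red above and blue below. Ddit3 is red up to 6 h and blue from 14 h, and most ER folding genes are a paler red at 14 h (median deviation 0.50).

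Further genes of these pathways were taken from lists of sensors and feedback genes, other Atf4 targets, other synthetases and other ER genes. In that order 9 of 14, 11 of 18, 15 of 15 and 15 of 20 were tested. None of them passed the test for a line in time (limma, adjusted p under 0.05). An unadjusted p under 0.05 was found in 4, 1, 3 and 2 of those tested, against 1385 of all 6424 genes. No call was made in these lists on reads either. Of the sensor and feedback list 7 of 9 had a negative change (median -0.59), as did 3185 of all 6424 genes. The medians of the others were -0.06, -0.06 and -0.15. After GC correction the 4 medians were -0.13, -0.18, 0.06 and 0.07. The other ER genes went from 11 of 15 negative to 6 of 15, where 2743 of all 6399 genes were negative. At 14 h against 6 h, 14 of 15 other synthetases (median 0.43) and 13 of 15 other ER genes (median 0.28) were higher, against 50.3% of all tested genes. The higher value at 14 h was thus not limited to the synthetases of the Atf4 arm.

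Within the sensor list, Nfe2l2, the oxidative stress factor Nrf2 and a substrate of PERK, stood between 8.07 and 8.54 up to 6 h and between 3.71 and 5.27 from 14 h. The groups did not overlap, but neither the line (-0.95, limma adjusted p = 0.153) nor the step (-0.75, adjusted p = 0.065) passed the test. The translation factor subunit gene Eif2s1 (4.07 to 10.1), the eIF2 alpha phosphatase subunit Ppp1r15b (22.4 to 37.2) and the ATF6 relative Atf6b (4.51 to 12.1) had changes of -0.59, -0.65 and 0.74 (limma, adjusted p = 0.430, 0.222 and 0.281). After GC correction these were 0.13, -0.48 and 0.18, so that Eif2s1 turned its sign. Atf3, a bZIP factor induced with Ddit3 in stress, is named after its values were seen. It had 1.09, 1.95, 2.79 and 1.45 at 0 to 6 h and 0.202, 0.123 and 0.275 later, without overlap, and it passed the step test (-1.20, limma adjusted p = 0.020) but not the line (-1.39, adjusted p = 0.159).

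Of the further Atf4 targets, Gdf15, a secreted stress hormone, had 6.78, 5.80, 7.79 and 10.7 at 0 to 6 h and 1.96, 2.11 and 4.31 later, again without overlap. At 14 h it was 5.47-fold below 6 h (95% interval 4.07 to 7.59). Its step was -1.23 (limma, adjusted p = 0.057), or -1.51 after GC correction (adjusted p = 0.0049). Ddit4, an mTORC1 inhibitor, was low at 14 h (12.8) and 24 h (17.5) but at 46.6 at 48 h. The glutamine transporter Slc1a5 and the tRNA exporter Xpot had changes of 0.17 and -0.32 (limma, adjusted p = 0.773 and 0.467), and of -0.18 and 0.01, each of the opposite sign, after GC correction.

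The named genes of the other lists had no common direction in time. Among the synthetases, Tars had a fitted change of -0.75, Rars of -0.63, Farsa of 0.43 and Vars of 0.92, with limma adjusted p between 0.178 and 0.353, and of -0.42, -0.25, 0.08 and 0.34 after GC correction. Vars was highest at 14 h (21.9), 1 of 6 genes among the 15 of its list to be so, against 15.3% of all tested genes. Among the ER genes, the E3 ligase Syvn1 had a change of 0.78, the isomerase Pdia6 of 0.30, the lectin chaperone Canx of -0.27 and the retrotranslocation factor Derl1 of -0.28 (limma, adjusted p between 0.254 and 0.6). GC correction gave 0.35, 0.46, 0.36 and -0.14 in that order, so that Canx turned its sign. Pdia6 was highest at 14 h (7.20) and lowest at 4 h (3.84).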

How the data were processed

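Per the labels' protocols, RNeasy RNA went into Lexogen SENSE libraries. The submitters' processing notes name Bowtie2 and build mm9. The authors deposited 1 value per RefSeq transcript and library, with no unit named. Multiplied by genomic span and an implied depth, the values that came to 2 to 20 reads were whole to within 0.1 in 79.6% to 81.2% of cases (20% would be by chance). Reads printed here are such products, with spans from GRCm38, and are approximate.

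Of 30673 rows, 3320 start-site rows were 0 throughout, and 695 further placements of a transcript were left out. Log2 of the value plus 1 was fitted with limma 3.58.1 (eBayes with trend) in R 4.3.3, for genes with a mean of at least 1, on 7 libraries with 5 residual degrees of freedom. P-values take libraries as independent points on a line. GC trends were natural splines with 5 degrees of freedom over 2449 genes with a mean of at least 5. The limma-voom fit took genes with at least 10 reads in at least 3 libraries. The straight-line limma fit was tested on simulated data without a GC trend. The step, the fit on reads and the GC correction were not tested in that way.

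The members and lists were chosen with earlier results of these data known. Values in every library are given for Atf4, Ddit3, Asns, Trib3, Xbp1 and Hspa5, for members called in the line fits, and for the 2 members per role of mean 1 or more with the largest fitted change. From each other list, the up to 4 genes that changed most, among those of mean 5 or more, are named. Values of other members were added after they were seen. Chosen after seeing the data were the step and the GC trend removal on reads.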

Additional observations from a re-analysis of the deposited data

How the results depend on the processing

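No paired analysis was possible because each time point has 1 library and its number carries no pairing. No result turned its direction where it was called. Of all genes, 19 rose and 4 fell by limma; these counts were 0 and 0 without a filter, 36 and 7 with a pseudocount of 0.1, 0 and 0 with 5, 7 and 1 with the GC trend removed, 162 and 28 with time in hours, 304 and 108 on reads with limma-voom, and 328 and 58 on reads with the GC trend removed. Leaving out 1 library each gave 1 to 54 that rose and 0 to 25 that fell; the highest counts came without 0 h. The count of members that fell was 0, and 0 to 1 with 1 library left out. It was 1 without the 6 h library (Ddit3, adjusted p = 0.045), 2 with time in hours (Chac1, -1.63, adjusted p = 0.045, and Dnajb9, -1.75, adjusted p = 0.028), 2 on reads and 2 on reads with the GC trend removed. The step, added after seeing the data, gave 1, or 4 with the GC trend removed, and 1 to 2 with 1 library left out. The second gene without 2 h was Nupr1 (limma, adjusted p = 0.030), in a fit where 42 of 6450 genes were lower and 17 higher. With all 7 libraries the step of Nupr1 was not called (limma, adjusted p = 0.117). The median fitted change of the Atf4 arm was -0.57 with quantile normalization. Its median ratio to 0 h at 24 h, -0.49, was -0.26 with a pseudocount of 5 and -0.26 against the mean of 0, 2, 4 and 6 h; at 48 h, -0.28, it was -0.48 with the GC trend removed. The cause of these differences was not tested. The other 145 summary values under these settings stayed within their limits. The fitted change took the opposite sign in some of 16 other settings for 9 members, in 4 for Hspa5 and Pdia4 and in 1 to 3 for the rest, none of them called. Depth limits genes such as Ddit3 after 6 h, at 88 to 159 reads.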
